A study of Homo sapiens with 7 samples.

Results

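The PAX transcription factor family was examined in human embryonic stem cells (hESCs) in which the catalytic domain of the H3K27 demethylase JMJD3 (JMJD3c) was switched on. The members were chosen by gene name, PAX1 to PAX9, and all 9 were found among the 20187 genes on chromosomes (22670 gene entries per library). No member was left out by a filter on low values. PAX proteins bind DNA through the paired domain and act as regulators of organ formation. They fall into the subgroups PAX1 and PAX9, PAX2, PAX5 and PAX8, PAX3 and PAX7, and PAX4 and PAX6, and each subgroup is known for its own tissues, such as the neural crest and muscle for PAX3 and PAX7, the eye, brain and pancreatic islet for PAX6, and B cells and the midbrain for PAX5. In embryonic stem cells the promoters of such developmental regulators are rich in CG dinucleotides and often carry H3K27me3, the repressive mark that JMJD3 removes.

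RNA-seq was made from 7 libraries, 1 per condition, of poly(A) RNA. All cells derived from SEES-3, a hESC line that here constantly expressed the reverse Tet-transactivator, and were grown without feeder cells. In JMJD3c-hESCs, a piggyBac construct placed the catalytic domain under a Tet-responsive element, and libraries were made without doxycycline (Dox; Day 0) and on Days 1, 2, 3 and 4 of 1 μg/ml Dox. In JMJD3c mut-hESCs the same construct carried a point mutation that inactivates catalysis, and libraries were made without Dox (on a day that the labels do not give) and on Day 4 of Dox. Both lines were stable clones selected with puromycin, so a difference between the lines and a difference between clones cannot be told apart. Levels are FPKM, fragments counted relative to transcript length and sequencing depth, which allows levels to be compared between genes, and each comes with the 95% interval that Cufflinks gave. With 1 library per condition there was no test, and every comparison below is between single libraries and has no replicate check.

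The libraries were shallow, with an estimated 1780000 to 3670000 reads, and the Day 0 library was the shallowest. KDM6B, the gene of JMJD3, was low without Dox (3.45 FPKM at Day 0, 2.40 FPKM in the mutant line), lay between 158 and 282 FPKM on Days 1 to 4, and reached 454 FPKM in the mutant line with Dox, which checks the Dox labels but does not tell active from inactive JMJD3c. The pluripotency genes matched the hESC label in every library, with POU5F1 between 619 and 841 FPKM. The 8 primitive streak and definitive endoderm markers were T, MIXL1, EOMES, GSC, SOX17, FOXA2, CER1 and GATA6. Of these, 8 were called higher at Day 4 against Day 0 (2.98% of all genes). Their summed level was 5.49 to 11.1 FPKM in the 3 libraries without active JMJD3c and went from 16.5 FPKM at Day 1 to 309 FPKM at Day 4. Of 8 pluripotency genes 1 was called lower at Day 4 against Day 0 (3.84% of all genes), SOX2, from 136 to 65.9 FPKM. SOX2 was at 99.6 FPKM in the mutant line without Dox and 74.6 FPKM with Dox, and its call was lost against either. The later libraries thus carried streak and endoderm markers beside those of hESCs, whose part in the PAX results was not tested, and in these bulk samples fewer cells of a type and less RNA per cell cannot be told apart.

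The promoters of the members differed widely in their number of CG dinucleotides. The RefSeq table on GRCh38.p14 held 19 promoter windows for 8 of the 9 members, each of 300 bases (250 before to 50 after a transcript start), and PAX1 was not in it. The motif searched was CG, which reads the same on both strands and does not overlap itself. The median was 16 per window for the members and 14 for all 35116 windows. The 250 bases before the start are shown for the 3 members that exceeded 1 FPKM (PAX7, PAX6 and PAX5), for PAX3 as the relative of PAX7, and for PAX4, which was listed at 0 everywhere; capitals mark each CG. All are written 5′ to 3′ on the strand of the gene.
PAX7 (chr1:18630596-18630845, plus strand): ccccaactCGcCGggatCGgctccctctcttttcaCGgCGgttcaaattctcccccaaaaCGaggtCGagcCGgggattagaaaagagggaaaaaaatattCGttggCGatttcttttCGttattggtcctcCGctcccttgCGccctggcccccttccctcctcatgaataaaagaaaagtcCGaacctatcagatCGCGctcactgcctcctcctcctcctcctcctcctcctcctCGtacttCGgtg
PAX6 (chr11:31817962-31818211, minus strand, the outermost of its 9 windows): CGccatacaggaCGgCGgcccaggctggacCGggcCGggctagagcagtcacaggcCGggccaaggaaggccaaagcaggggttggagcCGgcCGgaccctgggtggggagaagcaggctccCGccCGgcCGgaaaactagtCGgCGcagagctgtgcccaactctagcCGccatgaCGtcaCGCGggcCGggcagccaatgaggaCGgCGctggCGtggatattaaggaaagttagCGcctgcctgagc
PAX5 (chr9:37034269-37034518, minus strand): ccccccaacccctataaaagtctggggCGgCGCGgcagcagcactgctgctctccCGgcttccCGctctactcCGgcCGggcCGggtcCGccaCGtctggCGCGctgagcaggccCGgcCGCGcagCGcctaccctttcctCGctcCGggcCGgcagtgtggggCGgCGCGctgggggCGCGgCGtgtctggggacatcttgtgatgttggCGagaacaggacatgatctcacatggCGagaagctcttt
PAX3 (chr2:222298999-222299248, minus strand): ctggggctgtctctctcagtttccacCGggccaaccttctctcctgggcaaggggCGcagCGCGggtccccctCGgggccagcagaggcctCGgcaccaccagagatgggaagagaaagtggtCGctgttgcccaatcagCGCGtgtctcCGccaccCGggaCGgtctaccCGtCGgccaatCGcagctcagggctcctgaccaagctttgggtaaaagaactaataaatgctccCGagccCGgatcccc
PAX4 (chr7:127616028-127616277, minus strand, the inner of its 2 windows): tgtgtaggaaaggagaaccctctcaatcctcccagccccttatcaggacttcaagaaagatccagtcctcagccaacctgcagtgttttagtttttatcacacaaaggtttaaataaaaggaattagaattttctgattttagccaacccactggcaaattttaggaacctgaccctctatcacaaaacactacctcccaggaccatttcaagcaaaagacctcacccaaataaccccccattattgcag

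Over the full window of 300 bases, PAX5 held 30 CG (22.4% of all windows hold as many), PAX6 held 24 in the window shown (33.9%), and PAX7 and PAX3 held 21 each (39.5%). The 9 PAX6 windows ranged from 5 to 32. PAX7 reached its 21 in a window of only 54.3% G and C, and its observed count was 1.07 times that from its base composition, against a median of 0.58 over all windows. The windows of PAX4 held 2 (89.0% of all windows hold as many) and 0. PAX8, also listed at 0 in every library, held 13 (51.7%), more than the PAX6 windows with the lowest counts. By the highest window of each gene, PAX4 (2) and PAX8 (13) were the lowest, followed by PAX2 and PAX9 (19 each). Whether the CG count and the level go together was not tested. A CG count is a description of the sequence, and no H3K27me3 value was analysed here.

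**Figure D1:**
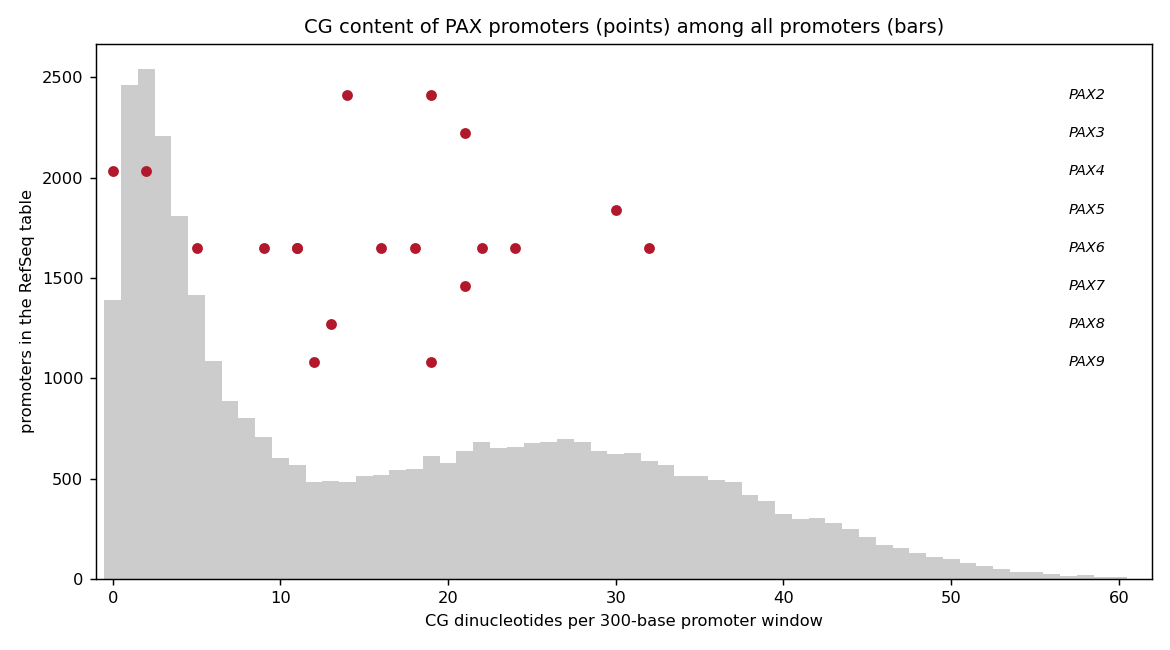
CG dinucleotides per 300-base window for the 19 PAX promoter windows (red points, 1 row per gene; the height of a row has no meaning) over the distribution of all 35116 windows (grey bars, number of windows). PAX4 sits at the low end with 2 and 0, while PAX5 (30) and a PAX6 window (32) lie in the CG-rich part.

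Of the 9 members, 3 were listed at 0 in all 7 libraries, 3 never exceeded 1 FPKM, and 3 (PAX5, PAX6 and PAX7) exceeded 1 FPKM in at least 1 library. PAX5 was the only one above 1 FPKM everywhere. Summed over the family, the level was 5.14, 18.0, 10.2, 7.14 and 12.1 FPKM from Day 0 to Day 4, against 5.70 in the mutant line without Dox and 3.51 with Dox. The family sum was thus higher on each Dox day than in the 3 libraries without active JMJD3c, with its peak on Day 1. PAX5 and PAX6 together made up 70.9% to 93.3% of it.

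**Figure D2:**
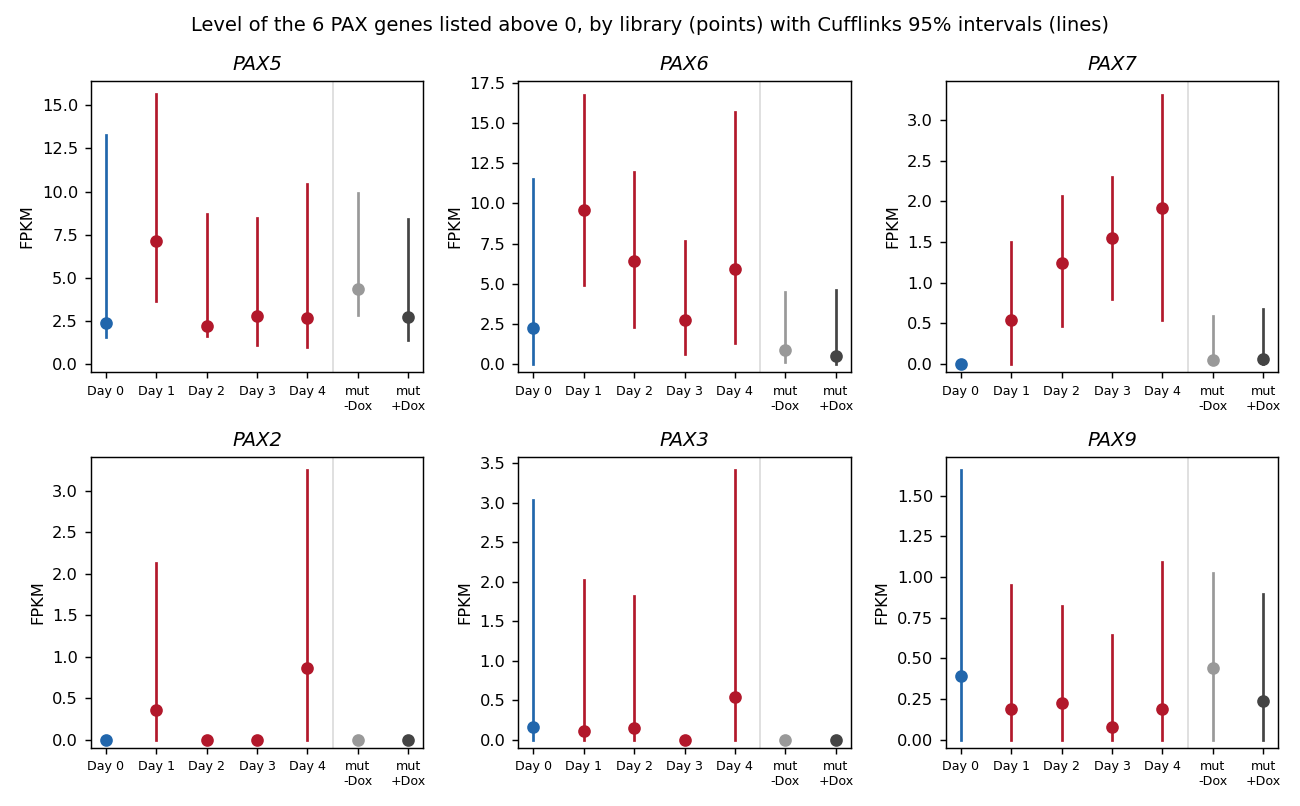
FPKM of the 6 PAX genes listed above 0 (1 panel per gene, each with its own scale) in the 7 libraries, with the Cufflinks 95% interval as a line. Blue is Day 0, red Days 1 to 4, light grey the mutant line without Dox and dark grey with Dox; PAX6 peaks on Day 1 at 9.62 FPKM, while PAX7 climbs from 0 to 1.92 FPKM by Day 4.

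A gene was called higher when it exceeded 2 times its level in the reference library with more than 4 FPKM, and lower when it was under 0.5 times that level with more than 4 FPKM in the reference, the cutoffs that the study used. At Day 4 against Day 0, 1 of the 9 members (PAX6) was called higher, against 2.98% of all genes, and 0 were called lower, against 3.84%. At Day 1 the members called higher were PAX5 and PAX6 (2 of 9; 1.76% of all genes), at Day 2 PAX6 alone (1 of 9; 1.97%), and at Day 3 none (2.4%). With a cutoff of 1 FPKM, PAX6 and PAX7 were called higher at Day 4 (2 of 9; 5.93%). No member was called higher at 4 FPKM where the intervals were also required to lie apart (1.28% of all genes), while PAX7 was at 1 FPKM (1.65%); the interval of PAX7 at Day 0 is 0 to 0 and holds no uncertainty.

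The median log2 change of the 9 members at Day 4 against Day 0, on the log2(FPKM + 1) scale that is used throughout and that understates changes of low genes, was 0.13. It was 0 over all genes and -0.06 over the 12971 genes above 1 FPKM in either library. By sign, 5 members were higher at Day 4, 1 was lower and 3 were at 0 in both. With so few reads behind most members, this count of signs is a description of these libraries.

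PAX7, which specifies muscle stem cells and neural crest, was listed at 0 at Day 0 and at 0.544, 1.24, 1.55 and 1.92 FPKM on Days 1, 2, 3 and 4. In the mutant line it stood at 0.0511 FPKM without Dox and 0.0584 FPKM with Dox, each of which corresponds to 1 read. PAX7 was higher on every Dox day than in any library without active JMJD3c, and its level increased at each step of the series. The gene lies on chromosome 1 (hg19, 18957500 to 19075360, plus strand, ENSG00000009709), and its promoter is the first of those printed above. The levels corresponded to about 0, 9, 24, 32 and 28 reads from Day 0 to Day 4. At Day 0, 3 reads would have given 0.280 FPKM on the longest transcript. The listed PAX7 level was 1.94 times that limit at Day 1 and 4.44 times at Day 2. It was 5.52 times the limit at Day 3 and 6.84 times at Day 4. These ratios leave out the counting error of the Dox libraries. The Cufflinks interval of PAX7 at Day 1 reached down to 0 and overlapped that of Day 0.

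Against the mutant line, PAX7 rested on 1 read in each reference library. The ratio of reads per depth at Day 4 was 42.1 against the untreated mutant line, with a counting interval of 6.97 to 1723 (exact, conditional on the sum of the reads). Against the mutant line with Dox it was 36.8, with an interval of 6.09 to 1506. At Day 1 the ratio to the untreated mutant line was 12.4, with an interval of 1.71 to 542. None of these intervals includes 1, but they cover counting error in 2 libraries only. The Cufflinks intervals were apart from those of both mutant libraries at Day 3 alone (1 of 9 members at 1 FPKM; 2.44% of all genes against the mutant line without Dox and 2.31% with Dox). Cufflinks gave PAX7 at Day 4 an interval of 0.538 to 3.31 FPKM, at Day 3 of 0.793 to 2.30 FPKM and at Day 2 of 0.465 to 2.06 FPKM, so the increase from Day 2 to Day 4 lay within the intervals. Of all genes, 2.12% increased at every step from Day 0 to Day 4, and of the 9 members PAX7 alone did.

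PAX3, the close relative of PAX7 in neural crest and muscle precursors, stayed near the limit of detection. It was listed at 0.165, 0.110, 0.151, 0 and 0.543 FPKM from Day 0 to Day 4 and at 0 in both mutant libraries. Day 4 was thus its highest library, but with about 4 reads against 1 at Day 0, a ratio of reads per depth of 2.92 (exact counting interval 0.289 to 144). The difference in PAX3 was not detectable at this depth. At the same depth PAX7 gave about 28 reads at Day 4, and in FPKM, which accounts for length, its level was 1.92 against 0.543 for PAX3. The 300-base promoter windows of both hold 21 CG.

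PAX6, the regulator of eye, forebrain and islet development, had the highest level of any member, 9.62 FPKM at Day 1. Day 0 gave 2.22 FPKM, Day 2 6.43 FPKM, Day 3 2.72 FPKM and Day 4 5.91 FPKM, and the mutant line gave 0.879 FPKM without and 0.517 FPKM with Dox. All 4 Dox days were above the 3 other libraries, but Day 3 was only 1.22 times Day 0. The ratios to Day 0 were 4.32, 2.89, 1.22 and 2.66 on Days 1 to 4. The gene lies on chromosome 11 (hg19, 31806340 to 31839509, minus strand, ENSG00000007372). Its Cufflinks interval was 0 to 11.5 FPKM at Day 0 and 1.31 to 15.7 FPKM at Day 4, so no difference to Day 0 exceeded the intervals.

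The reference mattered for the size of the PAX6 difference. Against the mutant line without Dox, Day 4 was 6.73 times higher and Day 1 was 10.9 times higher. Against the mutant line with Dox, the ratios were 11.4 and 18.6. The interval of Day 1 (4.94 to 16.8 FPKM) lay above those of both mutant libraries (0.122 to 4.50 FPKM without Dox and 0 to 4.59 FPKM with Dox), which held for no other day (1 of 9 members each; 1.04% and 1.24% of all genes had such a call above 4 FPKM against the mutant line without and with Dox). The untreated libraries themselves differed: PAX6 in the untreated mutant line was 0.395 times its Day 0 level, past the ratio cutoff at 1 FPKM but within the intervals, and 6.71% of all genes were called lower there by that rule. Within the mutant line the ratio with Dox to without was 0.588.

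Among the 9 members, PAX6 and PAX7 had all 4 Dox days above the 3 libraries without active JMJD3c. Of all genes 5.41% did, and of the 13651 genes above 1 FPKM in any library 7.36%. PAX9, which acts in the pharyngeal pouches, teeth and vertebral column, had all 4 below, as did 4.48% of all genes. Its levels were 0.391 FPKM at Day 0, 0.189, 0.223, 0.0779 and 0.190 FPKM on Days 1 to 4, and 0.443 and 0.237 FPKM in the mutant line without and with Dox. These levels correspond to between 1 and 6 reads per library, and the ratio of reads per depth at Day 4 to Day 0 was 0.487 (exact counting interval 0.0407 to 4.25). The PAX9 difference was not detectable at this depth.

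PAX5, the regulator of B-cell identity that also acts at the midbrain-hindbrain boundary, had a single high library. Its level was 2.36, 7.16, 2.20, 2.79 and 2.66 FPKM from Day 0 to Day 4, and 4.33 and 2.70 FPKM in the mutant line without and with Dox. Day 1 was 3.03 times Day 0, while Days 2, 3 and 4 lay within the range of the 3 libraries without active JMJD3c or just below it. The Cufflinks intervals of Day 0 (1.55 to 13.3 FPKM) and Day 1 (3.65 to 15.7 FPKM) overlapped. PAX5 was 1.83 times higher in the untreated mutant line than at Day 0, with no Dox in either. Its Day 4 level was 1.13 times Day 0 but 0.616 times the untreated mutant line, so the direction of this small difference turned with the reference. The gene lies on chromosome 9 (hg19, 36833272 to 37034103, minus strand, ENSG00000196092).

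The other relatives of PAX5, PAX2 and PAX8, mark the intermediate mesoderm, the kidney and, for PAX8, the thyroid. PAX2 was listed above 0 in 2 libraries, at 0.357 FPKM on Day 1 and 0.863 FPKM on Day 4, and at 0 in the other 5. The Day 4 level corresponds to about 8 reads. It was 2.07 times the 0.418 FPKM that 3 reads would have given at Day 0. Its interval at Day 4 nevertheless ran from 0 to 3.25 FPKM, and Days 2 and 3 in between were at 0. PAX8 was listed at 0 in every library, which at 3 reads allows up to 0.207 to 0.426 FPKM. PAX4, which directs islet cell fate, and PAX1, which acts in the sclerotome and thymus, were also listed at 0 throughout, which allows up to 0.402 to 0.829 FPKM for PAX4 and 0.159 to 0.328 FPKM for PAX1. At Day 4, PAX7 was listed above PAX3, PAX6 above PAX4, PAX5 above PAX2 and PAX8, and PAX9 (0.190 FPKM) above PAX1. The Day 4 intervals of PAX7 (0.538 to 3.31 FPKM) and PAX3 (0 to 3.41 FPKM) overlapped. Those of PAX5 (0.985 to 10.5 FPKM) and PAX2 overlapped as well. PAX5 was above PAX2 and PAX8 in every library, also in those without active JMJD3c.

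**Figure D3:**
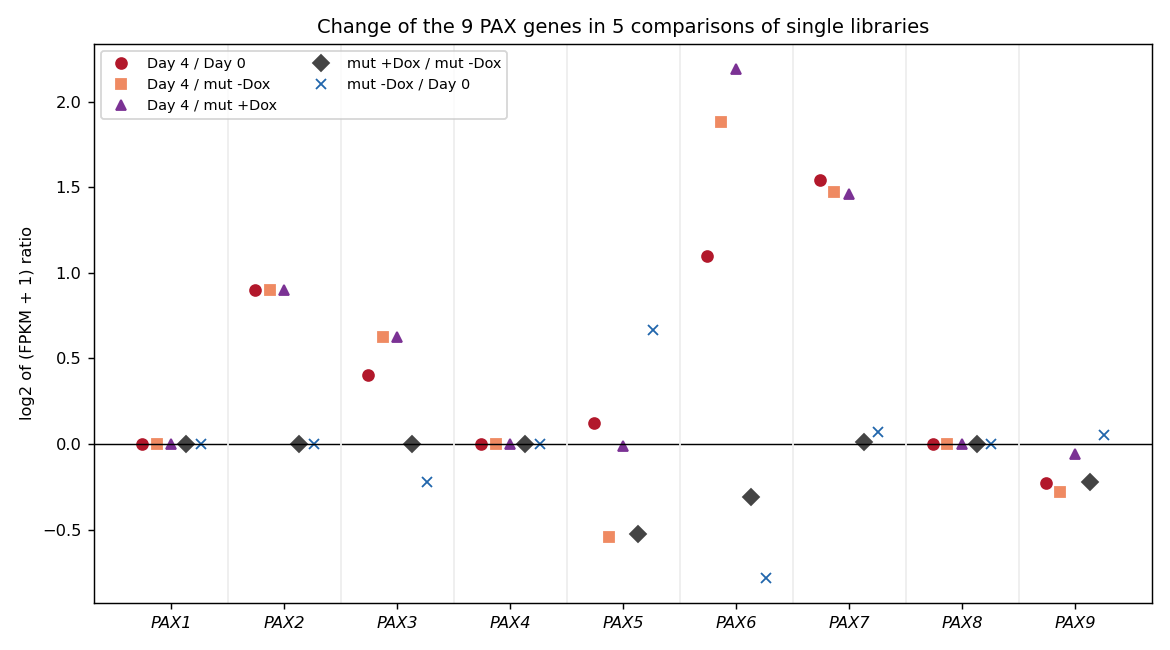
Difference between single libraries in log2(FPKM + 1) for the 9 PAX genes, 5 comparisons each marked by its own symbol; each symbol is 1 pair of libraries and has no error bar. PAX2, PAX3, PAX6 and PAX7 lie above 0 in all 3 comparisons of Day 4 with another library, while PAX5 changes side with the reference and the mutant line with Dox against without Dox (diamonds) lies at or below 0 for every gene but PAX7 (0.01).

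In the mutant line, 0 of the 9 members were called higher with Dox (0.604% of all genes) and 0 lower (0.738%). PAX5 was 0.624 times and PAX6 0.588 times its untreated level there. At Day 4, JMJD3c-hESCs compared with the mutant line with Dox had 1 of 9 members called higher, PAX6 (3.25% of all genes). Against the untreated mutant line it was again PAX6 (1 of 9; 3.51%). All comparisons at Day 4 share the Day 4 library, so their likeness is not independent support.

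PAX genes act with the sine oculis homeobox (such as SIX2 and SIX3), EYA and DACH proteins, a network of transcription factors and cofactors that is shared by eye, kidney and muscle. Of 11 of its genes, 0 were called at Day 4 in either direction (6.82% of all genes), and the median log2 change was 0.43 (0 over all genes). SIX3, a forebrain and eye regulator, was at 6.64 FPKM at Day 0 and 14.5, 15.4, 15.9 and 13.2 FPKM on Days 1 to 4, against 8.99 and 7.87 FPKM in the mutant line. DACH1 was at 0.201 FPKM at Day 0 and 1.33 FPKM at Day 4, and DACH2 at 1.08 and 0.153 FPKM. All 4 Dox days of SIX3 and DACH1, and of other genes of this list, were above Day 0 and above both mutant libraries, as for 5.41% of all genes. For DACH1 the margin on Day 1 was small (0.269 FPKM against 0.224 in the mutant line with Dox). The 9 cofactors of PAX proteins, among them the Groucho corepressors TLE1 (32.7 FPKM at Day 0 and 23.0 at Day 4), TLE2 (10.3 and 17.2) and TLE4 (12.1 and 7.79), were all detected, and 0 were called.

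The tissues in which PAX genes act were followed through 10 further lists. Over the 12 lists and 102 genes, 7 genes (6.86%) were called higher at Day 4 and 2 (1.96%) lower, against 2.98% and 3.84% of all genes, and 54 genes exceeded 1 FPKM in any library. In the mutant line with Dox against without, 0 were called higher (0.604% of all genes) and 2 lower (0.738%). These were MET, from 9.94 to 3.42 FPKM, and OTX2, from 15.2 to 7.50 FPKM. The lists differ in how much of them can be seen, since 20 genes were at 0 in all libraries.

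The neural crest list, the tissue of PAX3 and PAX7, had 3 of 10 genes called higher (2.98% of all genes) and 0 lower (3.84%). With intervals apart, 1 of them was called higher. MSX1, a homeobox gene of the neural plate border, was listed at 0, 0.216, 0, 0.335 and 4.02 FPKM from Day 0 to Day 4 and at 0.157 and 0 FPKM in the mutant line, so that Day 4 stood alone. MSX2 was at 1.35 FPKM at Day 0 and 4.63 FPKM at Day 4. ZIC1, a neural plate border regulator, was at 4.99, 22.2, 22.0, 26.2 and 15.8 FPKM from Day 0 to Day 4 and at 4.04 and 6.47 FPKM in the mutant line. ZIC1 was thus at its raised level by Day 1, the day on which PAX7 was first listed above 0 (0.544 FPKM). Their order was not tested. TFAP2A stood at 1.89 FPKM at Day 4 but also reached 1.28 FPKM in the mutant line without Dox, and SOX10, which defines migrating crest, was lower at Day 4 (0.610 FPKM) than at Day 0 (1.67 FPKM). ETS1 was at 19.5 and 16.7 FPKM. The intervals of Days 0 and 4 overlapped for MSX2 (0 to 6.77 and 1.81 to 7.63 FPKM) and ZIC1 (1.23 to 10.4 and 7.73 to 23.9 FPKM). They were apart for MSX1, whose interval at Day 0 is 0 to 0 and holds no uncertainty. The summed level of the list was 37.3 to 39.9 FPKM in the 3 libraries without active JMJD3c and 57.1 to 65.9 FPKM on the Dox days, and its part in the PAX7 result was not tested. ZIC1 carried this separation, since without it the sums were 30.9 to 35.9 FPKM and 35.8 to 43.6 FPKM and overlapped.

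The myogenic and paraxial mesoderm list, the other tissue of PAX3 and PAX7, had 0 of 13 genes called (6.82% of all genes in either direction). MYOD1, MYOG and LBX1 were listed at 0 in all JMJD3c libraries and in the untreated mutant line, and MYF5 was at 0 except for 0.434 FPKM at Day 3. MEF2C was at 3.18, 1.43, 1.10, 1.34 and 0.390 FPKM from Day 0 to Day 4, TBX6 was at 1.56 and 0 FPKM, and TCF15 at 0 and 1.52 FPKM on Days 0 and 4. FGFR4 (8.15 to 14.4 FPKM over the JMJD3c series) and MET (3.57 to 6.92 FPKM), receptors that are not restricted to muscle, made up most of the list. The summed level was 17.3 to 26.5 FPKM in the 3 libraries without active JMJD3c and 14.8 to 20.3 FPKM on the Dox days. PAX7 was detected in libraries in which MYOD1, MYOG and MYF5 were listed at or near 0, while other genes of the list were expressed. At Day 0, 3 reads would have given 1.05 FPKM for MYOD1, 1.29 for MYOG and 1.26 for MYF5, against 0.280 for PAX7. A listed 0 thus leaves room for low levels of these 3 genes, and their difference from PAX7 was not tested.

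The neural plate and eye field list, a tissue of PAX6, had 1 of 10 genes called higher (2.98% of all genes). OTX2, the anterior neural regulator that hESCs also express, was at 18.9, 35.3, 44.8, 43.0 and 47.7 FPKM from Day 0 to Day 4 and at 15.2 and 7.50 FPKM in the mutant line. SOX3 was at 9.61 FPKM at Day 0 and 17.1 FPKM at Day 4. RAX, FEZF2 and EMX2 were listed at 0 on all 5 days of the JMJD3c line. The summed level was 16.4 to 29.0 FPKM in the 3 libraries without active JMJD3c and 54.9 to 67.3 FPKM on the Dox days, and its part in the PAX6 result was not tested. OTX2 and SOX3 carried this separation, with 44.8 and 21.1 of the 67.3 FPKM on Day 2. Without both, the sums of the Dox days and of the other libraries overlapped. Of 8 islet genes 0 were called (6.82% of all genes in either direction). Their summed level was nevertheless 0.860 to 1.07 FPKM in the 3 libraries without active JMJD3c and 3.15 to 5.35 FPKM on the Dox days, and its part in the PAX6 result was not tested. INSM1 stood at 1.07, 1.86, 2.37, 2.55 and 1.09 FPKM from Day 0 to Day 4, and ISL1 at 0 and 1.05 FPKM on Days 0 and 4. NEUROG3, which starts endocrine differentiation, was at 0 at Day 0, 2.88 FPKM at Day 1 and 0.350 FPKM at Day 4, and PDX1 was at 0 throughout the JMJD3c series.

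The intermediate mesoderm and kidney list, the tissue of PAX2 and PAX8, had 2 of 6 genes called higher (2.98% of all genes). It had the highest median log2 change of the 12 lists, 0.65 (0 over all genes). LHX1, a regulator of intermediate mesoderm that is also active in the primitive streak, was at 0, 4.21, 6.42, 11.2 and 15.9 FPKM from Day 0 to Day 4, against 0.417 and 0.318 FPKM in the mutant line. RET, the receptor that guides growth of the ureteric bud, was at 4.61 FPKM at Day 0 and 9.92 FPKM at Day 4, with overlapping intervals. GATA3 was at 0 and 2.68 FPKM, and SALL1 was at 18.4 and 23.6 FPKM. The kidney genes OSR1 and WT1 were listed at 0 on every day of the JMJD3c series, as PAX8 was. The summed level was 20.5 to 30.8 FPKM in the 3 libraries without active JMJD3c and 31.9 to 52.1 FPKM on the Dox days. On Day 1, the lowest Dox day, LHX1 gave 4.21 of 31.9 FPKM, against 0.417 of 30.8 FPKM in the untreated mutant line. LHX1 carried this separation, since without it the sums of the Dox days and of the other libraries overlapped.

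In the remaining lists few genes moved past the cutoffs, by which 2.98% of all genes were called higher and 3.84% lower. Of 8 sclerotome genes (the tissue of PAX1 and PAX9) 1 was called higher, TWIST1. It was listed at 0 at Day 0 and at 5.61 FPKM at Day 4, 4.76 times the 3-read limit at Day 0. SOX9 was at 4.06 and 2.75 FPKM and FOXC1 at 4.85 and 4.17 FPKM. Of 6 genes of the pharyngeal endoderm and thymus, FGF8 was called lower, from 13.8 to 5.84 FPKM, and TBX1 was at 8.37 and 8.73 FPKM. Of 6 genes of the midbrain-hindbrain boundary, a PAX2 and PAX5 territory, GBX2 was called lower, from 14.7 to 5.61 FPKM with intervals apart, and LMX1B was at 4.60 and 4.74 FPKM. Both lower calls were lost against the untreated mutant line, where FGF8 stood at 8.98 FPKM and GBX2 at 9.80 FPKM. In the mutant line with Dox, FGF8 was at 6.31 FPKM and GBX2 at 12.8 FPKM. Against that library GBX2 at Day 4 was still past the cutoff (0.437 times), while FGF8 was not. Of 7 thyroid genes 0 were called, with HHEX at 0.855 and 2.70 FPKM but at 2.88 FPKM in the mutant line without Dox. Of 8 B-lineage genes 0 were called. CD79B was at 0.534 and 2.33 FPKM and CD79A at 0 and 1.13 FPKM, and EBF1, a partner of PAX5 in B cells, was not listed above 0.175 FPKM on any day of the JMJD3c series. The 7.16 FPKM of PAX5 at Day 1 was therefore seen with B-lineage genes that summed to 2.07 FPKM.

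**Figure D4:**
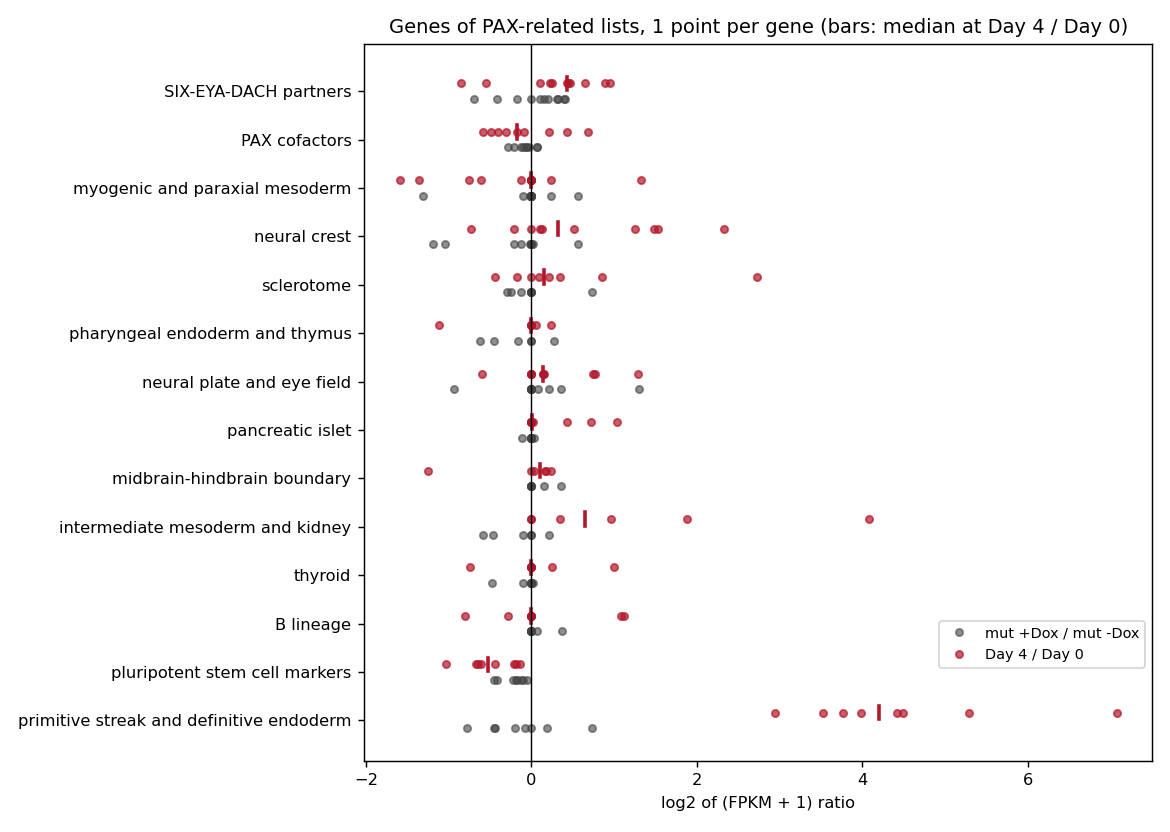
Log2(FPKM + 1) difference of each gene (points) in the 12 lists of PAX partners and tissues and in the 2 lists that check the cell type, at Day 4 against Day 0 (red, bar at the list's median) and in the mutant line with against without Dox (grey). The primitive streak and definitive endoderm genes stand apart with a median of 4.20, while the lists of PAX tissues spread around 0 with single genes such as LHX1, TWIST1 and MSX1 far to the right.

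The genes whose levels ran most like those of PAX5, PAX6 and PAX7 were taken from 10878 candidates by the Pearson correlation of log2(FPKM + 1) over the 7 libraries. With so many candidates and 7 points that share depth and 2 cell lines, high values occur for any pattern, and no p is given. For PAX7 the nearest were PDE3B (r = 0.99), CYP26A1 (0.99), GSTK1 (0.99), PDE8A (0.99) and LRIG3 (0.99). CYP26A1, which breaks down retinoic acid, was at 2.63, 10.5, 29.0, 35.5 and 48.8 FPKM from Day 0 to Day 4 and at 4.40 and 2.27 FPKM in the mutant line. Like PAX7 it was higher at each later day and low in the mutant line, but at a higher FPKM level.

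For PAX6 the gene most like it was SIX2 (r = 0.99), itself a member of the partner network above, followed by FAM160B2 (0.97), ZNF513 (0.97), CALCOCO2 (0.97) and FIZ1 (0.96). SIX2 was at 1.68, 4.68, 3.56, 1.60 and 2.66 FPKM from Day 0 to Day 4 and at 0.545 and 0.156 FPKM in the mutant line. SIX2 shared the peak of PAX6 at Day 1, the dip at Day 3 and the second increase at Day 4. For PAX5 the nearest were UBE2D2 (0.98), RHOQ (0.96), RHEBL1 (0.96), LRRC1 (0.92) and INPP5D (0.92), which also had their highest library at Day 1. Between the members themselves, r was 0.64 for PAX6 and PAX7, 0.28 for PAX5 and PAX6 and -0.21 for PAX5 and PAX7.

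**Figure D5:**
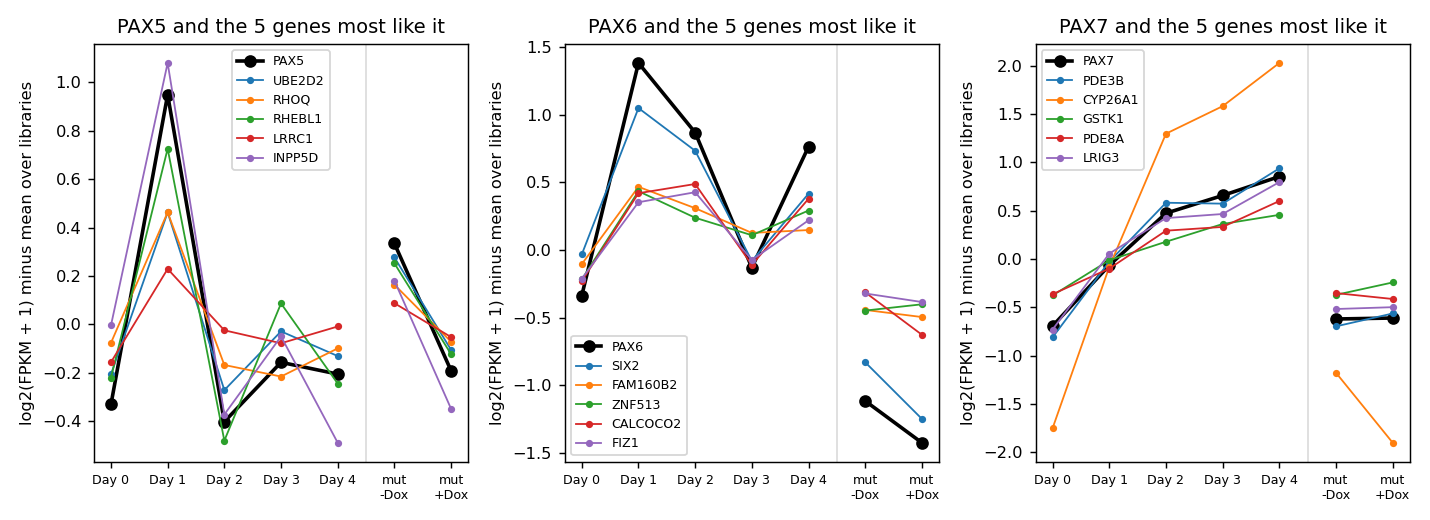
Log2(FPKM + 1) minus its mean over the 7 libraries for PAX5, PAX6 and PAX7 (black) and the 5 genes most like each (colours); lines join the days of the JMJD3c line and the 2 libraries of the mutant line. PAX5 and its set peak at Day 1, PAX6 and SIX2 peak at Day 1 and dip at Day 3, and PAX7 and its set are highest at Day 4 and low in both mutant libraries.

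Calls among the genes beside the PAX loci were too few to give a rate, and 4 of these genes were at 0 in all libraries. Of 14 genes within 100 kb, 1 (7.14%) was called at Day 4, against 6.82% of all genes in either direction. It was SLC25A21, which overlaps PAX9 by 1285 bases on the other strand and stood at 1.96 and 5.49 FPKM on Days 0 and 4 but at 7.31 FPKM in the mutant line without Dox, while PAX9 itself was lower. RCN1 overlaps PAX6 by 5571 bases on the other strand and was at 76.0 to 99.2 FPKM, and ELP4, which ends 794 bases from PAX6, was at 7.24 to 9.74 FPKM. Neither had the peak of PAX6 at Day 1. CCDC140 overlaps PAX3 and was listed at 0 in all libraries. The library kit kept the strand, but whether the counting used it is not stated, so reads of PAX6 and RCN1 or of PAX9 and SLC25A21 in the shared bases may not have been told apart. ZCCHC7 beside PAX5 was at 24.8 FPKM at Day 0 and 12.9 FPKM at Day 4, with 15.9 FPKM at Day 1, where PAX5 was highest. The only neighbour of PAX7, TAS1R2, was listed at 0 in all libraries, as were FSCN3 beside PAX4 and IL1RN beside PAX8. PSD4 beside PAX8 was at 0.219 to 0.766 FPKM, and NKX2-8 beside PAX9 was above 0 at Day 4 alone (0.388 FPKM). The other neighbours of PAX4, ARF5 (67.2 to 99.4 FPKM), SND1 (77.3 to 100.4 FPKM) and GCC1 (6.08 to 9.40 FPKM), were expressed in every library while PAX4 was at 0, as was FAM178A beside PAX2 (7.39 to 10.2 FPKM).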

How the data were processed

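RNA-seq was made from total RNA by poly(A) selection with a strand-keeping kit and sequenced as single reads of 150 bases. According to the methods and the submitters' processing notes (CASAVA 1.4, TopHat2 2.0.13, Cufflinks 2.1.1), the authors mapped the reads to hg19 and deposited FPKM per gene with the bounds of its 95% interval. The annotation release and the strand setting are not given in the sources used here. As FPKM carry no read counts, the number of reads was inferred from 698 low values, most of them near multiples of 1 read, in 819 genes with 1 exon and 1 transcript (65.0% within 0.125 of a whole read; 250 near 1 read and 35 near 0.5 reads), with 200 bases subtracted from the length in GENCODE release 44 on GRCh37. Reads and 3-read limits of a member use its longest transcript and cover counting error only.

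Calls used a ratio over 2 or under 0.5 with more than 4 FPKM in the higher library, and log2 changes a pseudocount of 1. There was no test, as each condition had 1 library. The members, gene lists and alternatives were chosen with earlier results of these data known. Named genes were the members, the genes called in each list and up to 3 further genes of each list with the largest change above 1 FPKM, the 5 genes most like a member, and neighbours; list genes named beside them for being at or near 0, and POU5F1, FGFR4, MET and NEUROG3, were chosen after their values were seen. Some genes of the lists are not reported here. Promoters came from RefSeq on GRCh38.p14; protein sequences were not analysed here. Tools were Python 3.11.15, pandas 2.3.3, numpy 2.4.6, matplotlib 3.10.9 and scipy 1.17.1. The calls were tested on a simulated pair of libraries with 16786 genes and counting error only. There 200 of 200 genes changed 4-fold, all taken from genes above 20 FPKM, were called. So were 48 unchanged genes, 0 of them above 20 FPKM. No PAX gene reached 20 FPKM, so the simulation does not show how well the rule finds changes at PAX levels.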

Additional observations from a re-analysis of the deposited data

Results flagged for a closer look

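Among the 9 PAX genes and the 9 genes of PAX-related lists called at Day 4 against Day 0, there were 7 for which the difference at Day 4 in the JMJD3c line and the difference with Dox in the mutant line had opposite signs. The difference between the log2 changes was not tested, since each rests on 4 single libraries. Among the PAX genes it was 1.41 for PAX6 and 0.65 for PAX5. For PAX5 most of it came from the mutant line, where the untreated library was the higher. In the lists of PAX tissues it was 4.18 for LHX1, 2.54 for MSX1, 2.23 for OTX2 and 1.43 for RET, which were higher at Day 4, and -1.61 for GBX2, which was lower.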

How the results depend on the processing

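No paired analysis was possible because each condition had 1 library. Of 120 alternatives over 20 results, 81 kept their direction and, within 1.5 times for counts, their value, 38 moved and 1 turned direction. That one was PAX5 at Day 4, which was -0.54 on the log2 scale with the untreated mutant line as reference. With a cutoff of 1 FPKM the members called higher were 2 on Day 4, 2 on Day 2 and 1 on Day 3, and 2 each against the untreated mutant line and against the mutant line with Dox. With no FPKM cutoff they were 4 on Day 4, 4 on Day 1, 2 on Day 2 and 1 on Day 3, and 4 against each mutant library. The members called lower were then 1 on Day 4, 1 on Day 1 and 2 on Day 3, and 1 against the untreated mutant line. With intervals required to lie apart, 0 were called higher at Days 1, 2 and 4 and against each mutant library. With Day 3 in place of Day 4, 0 were called higher. The median log2 change of 0.13 became 0.169 with a pseudocount of 0.1, 0.0676 with a pseudocount of 4 and 0.167 after scaling by the median ratio. It was 0 against the untreated mutant line, 0 at Day 3, and 0.897 without the members under the 3-read limit. In the PAX-related lists, 15 genes were called higher and 6 lower at 1 FPKM, 35 and 10 with no cutoff, and 4 and 1 with intervals apart. The cause was not tested, beyond the fewer or more genes that each rule lets pass. With 1780000 reads at Day 0, the 3-read limits of the PAX genes were 0.198 to 0.829 FPKM there, and values below them, such as those of PAX3 and PAX9, rest on under 3 reads.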
